A study of Mus musculus with 12 samples.

Results

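Genes of late neutrophil granules and effector functions were followed across 12 RNA-seq libraries of mouse bone marrow progenitors. The set holds 10 genes, taken by symbol from the 24411 genes listed: S100a8, S100a9, Camp, Ngp, Fcnb, Lcn2, Ltf, Olfm4, Padi4 and Lrg1. All 10 were among the 13755 genes tested, and the lowest count of any of them in any library was 32, so none was tested through a single group. The cells were lineage-negative and cKit-positive, a gate for hematopoietic stem cells and progenitors, from femora and tibiae of C57BL/6 mice.

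Lethally irradiated CD45.1 recipients had been given CD45.2 donor marrow mixed with wild-type CD45.1 support marrow. Every donor carried Mx1-Cre, a recombinase transgene that interferon, and hence the double-stranded RNA analogue pIpC, switches on in blood-forming and in some other cells. The double group carried the inv(3) allele and 1 mutant copy of the splicing factor Sf3b1 (K700E). The inv(3) group carried the rearrangement alone, the Sf3b1 K700E group the splicing mutation alone, and control donors Mx1-Cre alone. All groups, control included, had pIpC 4 weeks after transplant, in 3 doses of 20 mg/kg, and were sampled 6 months later, with 3 libraries in each of 4 groups. The inv(3) rearrangement brings a GATA2 enhancer to EVI1, the gene called Mecom in mouse. Neither the share of donor cells in each library nor whether replicates are separate mice is stated in the labels, so p-values measure the spread between these libraries.

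Neutrophils make their granules in sequence. Promyelocytes fill the primary granules with Mpo and Elane, myelocytes and metamyelocytes then fill the secondary granules with Ltf, Camp, Ngp and Lcn2, and the last stages store S100a8 and S100a9 protein in the cytosol. Cells that make most of the later proteins have lost Kit, so a Kit gate holds mainly their precursors. Camp encodes the cathelicidin antimicrobial peptide, Ltf the iron-binding lactoferrin, and Lcn2 a lipocalin that captures bacterial siderophores. C/EBP factors, C/EBP-epsilon above all, are known to switch on secondary granule genes.

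Depth was even, with 73074797 to 86555638 expected counts a library. The gate's receptor Kit averaged 429 ± 7.34 to 457 ± 13.3 CPM (SD, n = 3) over the 4 groups, but other progenitor markers differed, as given with the cell type markers. Levels within a gene are given as CPM, counts scaled to library size by TMM, and levels between genes as the deposited TPM, which corrects for length. Y-linked genes (4 read, summed) gave 4 to 8 counts per inv(3) library and at least 19200 elsewhere, and Xist averaged 30.4 ± 9.0 CPM in the double group, 1952 ± 151 in inv(3), 159 ± 71.7 in Sf3b1 K700E and 32.9 ± 8.11 in control (SD, n = 3). A comparison with the inv(3) group is thus also one of Y-negative with Y-positive libraries, and the allele cannot be told apart from that difference. The double, Sf3b1 K700E and control libraries are all Y-positive, with Xist at 77.1 to 209.7 CPM in Sf3b1 K700E libraries and at 40.5 or less in double and control libraries. Mecom as annotated in mouse read 10.3, 8.98 and 11.2 CPM in the double libraries and 5.86, 3.65 and 4.24 in inv(3). It read 7.12, 10.99 and 7.32 CPM in Sf3b1 K700E libraries, a range that overlaps the double one, and 5.49, 6.59 and 6.37 in control. The labels do not say how the inv(3) allele was built, so this row may not read all of its product.

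Windows of 250 bases before a RefSeq start (GRCm38) are shown for 6 of the genes. S100a8 with S100a9, and Camp with Ngp, were chosen as the pairs that moved most closely together. Olfm4 and Padi4 were chosen because they differed most between the double group and control among genes whose libraries lay close together. Capitals mark matches to the C/EBP core TTNNGNAA on either strand.
S100a8, chr3:90668821-90669070, plus strand: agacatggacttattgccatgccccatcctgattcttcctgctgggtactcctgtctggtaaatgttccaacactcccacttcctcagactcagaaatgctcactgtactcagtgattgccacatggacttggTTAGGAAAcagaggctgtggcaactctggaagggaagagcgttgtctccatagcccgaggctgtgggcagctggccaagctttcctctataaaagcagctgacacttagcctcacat
S100a9, chr3:90695722-90695971, minus strand: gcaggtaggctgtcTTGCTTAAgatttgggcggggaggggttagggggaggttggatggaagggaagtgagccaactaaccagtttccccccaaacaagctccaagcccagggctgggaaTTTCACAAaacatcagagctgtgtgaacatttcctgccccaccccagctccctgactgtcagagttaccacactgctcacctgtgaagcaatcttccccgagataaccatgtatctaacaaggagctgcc
Camp, chr9:109849457-109849706, minus strand: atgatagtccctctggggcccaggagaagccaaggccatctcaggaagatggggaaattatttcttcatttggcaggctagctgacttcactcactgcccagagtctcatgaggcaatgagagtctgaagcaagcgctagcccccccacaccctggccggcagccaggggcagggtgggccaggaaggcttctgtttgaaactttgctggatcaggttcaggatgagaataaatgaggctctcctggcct
Ngp, chr9:110419558-110419807, plus strand: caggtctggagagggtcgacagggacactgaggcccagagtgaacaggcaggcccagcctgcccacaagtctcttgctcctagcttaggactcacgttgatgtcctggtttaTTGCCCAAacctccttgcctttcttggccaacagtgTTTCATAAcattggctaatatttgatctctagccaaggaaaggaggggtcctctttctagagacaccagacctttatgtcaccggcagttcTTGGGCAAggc
Olfm4, chr14:80000052-80000301, plus strand: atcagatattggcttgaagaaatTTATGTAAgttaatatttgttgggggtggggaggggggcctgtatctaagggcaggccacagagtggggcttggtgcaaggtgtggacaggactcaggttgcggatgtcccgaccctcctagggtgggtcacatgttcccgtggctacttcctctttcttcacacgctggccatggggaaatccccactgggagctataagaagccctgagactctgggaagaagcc
Padi4, chr4:140774204-140774453, minus strand: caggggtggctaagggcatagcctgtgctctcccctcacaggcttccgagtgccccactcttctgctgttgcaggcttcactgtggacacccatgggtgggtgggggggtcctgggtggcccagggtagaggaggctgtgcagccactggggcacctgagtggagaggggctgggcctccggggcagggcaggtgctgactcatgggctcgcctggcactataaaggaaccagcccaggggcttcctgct

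The C/EBP core was found in 7 of the 10 windows, against 36.8% of 32851 RefSeq windows of the same length. Ngp held 3 matches, starting 138, 102 and 11 bases before the start, S100a9 held 2, and S100a8 and Olfm4 held 1 each. Camp, Padi4 and Lrg1 held no match in these windows. The Padi4 and Fcnb windows overlap the RefSeq gene positions, which end at 140774239 and 28084910, so these windows are not wholly upstream of the gene. The letters GAGGAA, a core of PU.1 sites, were in 4 of 10 windows and in 23.3% of all windows, and the GATA core AGATAA in 2 of 10 and 9.99%. A match is a run of letters and not a measured site.

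Most of the genes were higher wherever the inv(3) allele was present. In the double group against control, 8 of 10 rose and none fell by edgeR's adjusted p, where 20.8% of all tested genes rose and 20.4% fell (41.1% in either direction). The median log2 difference of the 10 was 1.42, against 0.0024 over all tested genes. In the double group against Sf3b1 K700E, 7 of 10 rose and none fell (25.7% and 23.5% of all genes, 49.2% in all), with a median of 1.07 against 0.025. In inv(3) against control, 9 of 10 rose and none fell (18.4% and 20.3% of all genes, 38.7% in all), with a median of 2.05 against 0.0034. The double group and inv(3) were both set against the same control libraries. Without control library 3, 5 of 10 passed in the double group against control. In these bulk libraries, more cells that express a gene and more RNA per cell cannot be told apart.

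**Figure D1:**
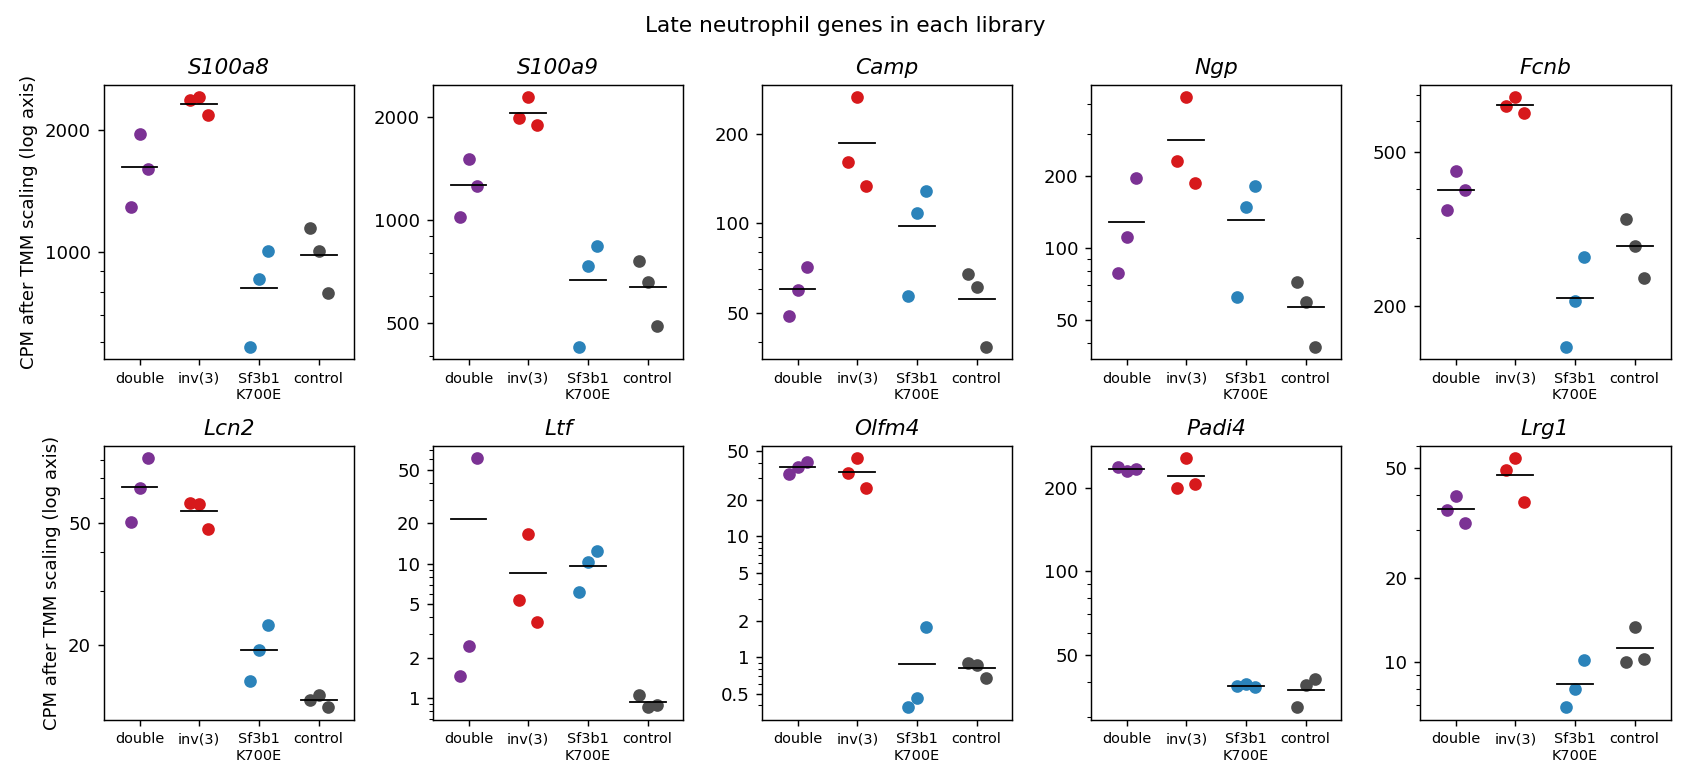
Level of each of the 10 genes in CPM after TMM scaling (log axis, its range set for each gene) in each library of the double, inv(3), Sf3b1 K700E and control groups. Points are libraries in the order of replicate 1 to 3 and lines are means of 3. Padi4 sits at 199 to 256 CPM in the double and inv(3) libraries and at 32.4 to 41.1 in the others, while Camp in the double group sits at 48.9 to 71.3, among the control values.

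The most abundant of the 10 were S100a8 and S100a9, the calcium-binding subunits of calprotectin, which sequesters zinc and manganese from microbes. On the TPM scale S100a8 averaged 12070 in the double group, 16600 in inv(3), 6497 in Sf3b1 K700E and 7482 in control. S100a9 was next in the order of levels in every group, at 5987, 9290, 3382 and 3078 TPM in the same groups, and its highest library lay below the lowest S100a8 library of its group in all 4. Together both genes made 72.1% to 78.2% of the summed CPM of the 10 genes in any library. S100a8 is short, with an effective length of 229 bases of 392, so its TPM rests on that correction.

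S100a8 stood at 1298, 1965 and 1610 CPM in the double libraries, against 1151, 1009 and 794 in control libraries. It stood at 2377, 2414 and 2179 CPM in inv(3) libraries and 586, 862 and 1007 in Sf3b1 K700E libraries. All double and inv(3) libraries were above all control and Sf3b1 K700E libraries, and the inv(3) libraries were above the double ones. The rise over control was 0.72 ± 0.20 log2 units in the double group (SE, n = 3 per group, adjusted p = 0.014) and 1.24 ± 0.20 in inv(3) (adjusted p = 0.0007). The double group was 0.99 ± 0.20 above Sf3b1 K700E (adjusted p = 0.002). Without control library 3 or double library 2, the first of these differences no longer passed (adjusted p = 0.059 and 0.057).

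S100a9 read 1023, 1514 and 1262 CPM in the double libraries, against 759, 662 and 491 in control libraries. It read 1986, 2289 and 1899 CPM in inv(3) libraries and 427, 737 and 843 in Sf3b1 K700E libraries. All double and inv(3) libraries were above all control and Sf3b1 K700E libraries, the inv(3) libraries highest. The double group was above control by 0.99 ± 0.24 (adjusted p = 0.0069) and above Sf3b1 K700E by 0.92 ± 0.24 (adjusted p = 0.0084), and inv(3) above control by 1.69 ± 0.24 (adjusted p = 0.00031). The genes lie on chromosome 3 with 22595 bases between them, S100a8 at 90669071 to 90670034 and S100a9 at 90692630 to 90695721. The ratio of S100a8 to S100a9 TPM was 1.99 to 2.04 in double libraries, 1.68 to 1.88 in inv(3) libraries, 1.84 to 2.15 with Sf3b1 K700E alone and 2.38 to 2.56 in control.

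Other S100 genes changed in both directions. Of 15 further S100 genes read, 6 were tested. In the double group against control 1 rose and 2 fell (20.8% and 20.4% of all tested genes), with a median of -0.021. S100a10, a partner of annexin A2, averaged 24.8 CPM in the double group and 45.4 in control (-0.87 ± 0.12, adjusted p = 0.00014). S100a11 averaged 322 and 388 CPM in these groups (-0.27 ± 0.10, adjusted p = 0.046), and S100a4 4.50 and 3.05 CPM (0.56 ± 0.20, adjusted p = 0.038).

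Camp and Ngp, a pair of cathelicidin-family granule proteins, rose in inv(3), while in the double group neither passed edgeR's test against control. Camp had 48.9, 59.7 and 71.3 CPM in the double libraries, against 67.5, 61.2 and 38.5 in control libraries. In inv(3) libraries it had 161, 265 and 133 CPM, and in Sf3b1 K700E libraries 56.7, 109 and 129. The double and control ranges overlapped, and all inv(3) libraries lay above every library of the other groups. Camp was 3.34-fold higher in inv(3) than in control (1.74 ± 0.34 log2 units, adjusted p = 0.0024), and 0.11 ± 0.34 from control in the double group (adjusted p = 0.83). Against inv(3), the double group fell by 1.64 on the log2 scale (SE 0.34, adjusted p = 0.008), a call that held without any 1 library of these groups (adjusted p up to 0.039).

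Ngp, neutrophilic granule protein, had 78.9, 111 and 196 CPM in the double libraries, against 71.9, 59.7 and 38.7 in control libraries. It had 231, 425 and 188 CPM in inv(3) libraries and 62.6, 149 and 181 in Sf3b1 K700E libraries. The double libraries were all above control, but their spread was wide and the difference of 1.18 ± 0.47 did not pass by edgeR (adjusted p = 0.067), but passed with DESeq2 (adjusted p = 0.0497) and without double library 1 (adjusted p = 0.0453). The rise in inv(3) over control passed, at 2.31 ± 0.48 (adjusted p = 0.0036). The difference of -1.13 ± 0.46 between the double group and inv(3) did not pass (adjusted p = 0.11). Camp per Ngp in CPM ran from 0.364 to 0.62 in double libraries, 0.623 to 0.711 in inv(3) libraries, 0.712 to 0.906 with Sf3b1 K700E alone and 0.94 to 1.03 in control.

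Fcnb, a ficolin that binds microbial sugars and starts the lectin complement pathway, showed a like order of groups to S100a8. Double libraries had 354, 445 and 397 CPM, against 335, 286 and 237 in control libraries. Libraries of inv(3) had 655, 689 and 628 CPM and those of Sf3b1 K700E 158, 206 and 268. The double group lay above control in every library, by little in the closest pair. The difference was 0.48 ± 0.17 in the double group (adjusted p = 0.045) and 1.20 ± 0.17 in inv(3) (adjusted p = 0.0003), and the double group was 0.92 ± 0.17 above Sf3b1 K700E (adjusted p = 0.0012). The first of these no longer passed without control library 2 or 3 or double library 2 or 3 (adjusted p up to 0.16). Against inv(3), Fcnb fell by 0.72 on the log2 scale in the double group (SE 0.17, adjusted p = 0.014), which no longer passed without double library 1 (adjusted p = 0.06).

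Lcn2, the siderophore-binding lipocalin, rose to about the same level with inv(3) alone and with both alleles. It had 50.2, 64.5 and 80.9 CPM in the double libraries, against 13.3, 13.9 and 12.6 in control libraries. It had 57.9, 57.6 and 47.8 CPM in inv(3) libraries and 15.4, 19.4 and 23.2 in Sf3b1 K700E libraries. Neither group with inv(3) overlapped either group without it. The rise was 4.92-fold in the double group (2.30 ± 0.18 log2 units, adjusted p = 2.95e-06), 4.11-fold in inv(3) (2.04 ± 0.18, adjusted p = 1.06e-05) and 3.37-fold in the double group over Sf3b1 K700E (1.75 ± 0.18, adjusted p = 1.46e-05). The double group and inv(3) differed by 0.26 ± 0.17 (adjusted p = 0.3).

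Ltf, lactoferrin, was the least abundant in control, and its mean in the double group rested on double library 3. It had 1.45, 2.46 and 61.0 CPM in the double libraries, against 1.06, 0.857 and 0.887 in control libraries. It had 5.38, 16.7 and 3.66 CPM in inv(3) libraries and 6.20, 10.3 and 12.5 in Sf3b1 K700E libraries. Every library of the other groups was above control, and double library 3 stood far above all. The double group passed against control at 4.53 ± 1.40 (adjusted p = 0.027), but at 1.06 without double library 3 it did not (adjusted p = 0.2), nor did it without control library 1, 2 or 3 (adjusted p = 0.083, 0.086 and 0.081). The differences of inv(3) and Sf3b1 K700E from control, 3.19 ± 1.36 and 3.37 ± 1.37, did not pass by edgeR (adjusted p = 0.093 and 0.16). Both passed with DESeq2 (adjusted p = 0.0179 and 0.0311) and with the compared groups fitted alone (adjusted p = 0.00707 and 0.00615). Without double library 3 the double group fell below Sf3b1 K700E by 2.31 on the log2 scale (adjusted p = 0.0103) and below inv(3) by 2.13 (adjusted p = 0.043).

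Some other genes of mature neutrophils were also high in double library 3, and they were chosen after their values were seen. Others of the same list were not: Hp and G0s2, chosen likewise, were lowest there. Hp read 375, 410 and 351.5 CPM in the double libraries, and G0s2 10.7, 11.4 and 9.31. Mmp9, the gelatinase of tertiary granules, read 0.107, 0.208 and 2.27 CPM in the double libraries, against 0.0131, 0.126 and 0.0616 in control libraries. Retnlg, a resistin-like protein of mature neutrophils, read 0.107, 0.065 and 0.911 CPM in the double libraries, against 0.157, 0.151 and 0.0616 in control libraries. The collagenase Mmp8 read 0.048, 0 and 1.78 CPM in the double libraries, against 1.44, 1.51 and 1.16 in control libraries, so only double library 3 reached the control level. The levels of Mmp9, Retnlg and Mmp8 are near the floor of the libraries. Their part in the Ltf and Ngp values of that library was not tested.

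Olfm4, olfactomedin 4 of the secondary granules, had the largest fold difference of the 10 in the double group against control. It had 32.6, 37.3 and 40.8 CPM in the double libraries, against 0.904, 0.857 and 0.677 in control libraries. It had 33.3, 44.0 and 25.0 CPM in inv(3) libraries and 0.386, 0.465 and 1.78 in Sf3b1 K700E libraries. The groups with and without inv(3) lay more than an order of magnitude apart. The rise was 45.4-fold in the double group over control (5.50 ± 0.45 log2 units, adjusted p = 4.63e-06), 41.9-fold in inv(3) over control (5.39 ± 0.45, adjusted p = 8.35e-06) and 41.1-fold in the double group over Sf3b1 K700E (5.36 ± 0.44, adjusted p = 4.39e-06). These calls held without any 1 library of the compared groups.

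Padi4, the enzyme that citrullinates histones when neutrophils release chromatin traps, had the smallest spread of the 10 within the double and Sf3b1 K700E groups, though not within inv(3) or control. It had 237, 230 and 234 CPM in the double libraries, against 32.4, 39.1 and 41.1 in control libraries. It had 199, 256 and 206 CPM in inv(3) libraries and 38.7, 39.2 and 38.3 in Sf3b1 K700E libraries. The double libraries differed from each other by little, as did those of Sf3b1 K700E. Padi4 rose 6.22-fold in the double group over control (2.64 ± 0.10 log2 units, adjusted p = 2.18e-08), 5.87-fold in inv(3) over control (2.55 ± 0.10, adjusted p = 3.28e-08) and 6.03-fold in the double group over Sf3b1 K700E (2.59 ± 0.10, adjusted p = 2.09e-08). Without any 1 library the rise over control in the double group stayed between 2.54 and 2.71.

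Padi4 lies in a cluster of related deiminase genes, of which 3 others were tested. Padi2, a more widely expressed deiminase, averaged 81.3 ± 7.29 CPM in the double group and 33.3 ± 4.86 in control (SD, n = 3), a rise of 1.29 ± 0.10 (SE, adjusted p = 1.77e-06). Padi3 averaged 2.08 CPM in the double group and 0.593 in control (1.81 ± 0.26, adjusted p = 0.0002). Of 7 close relatives tested in all, 4 rose and 1 fell in the double group against control (20.8% and 20.4% of all tested genes). The one that fell was Fcna, a ficolin of macrophages and a relative of Fcnb, at 2.22 CPM in the double group and 6.77 in control (-1.61 ± 0.46, adjusted p = 0.016), and it was 35.3 CPM in Sf3b1 K700E.

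Lrg1, a leucine-rich glycoprotein released by neutrophils and liver, had 35.1, 39.5 and 31.7 CPM in the double libraries, against 9.98, 13.3 and 10.3 in control libraries. It had 49.1, 54.2 and 37.8 CPM in inv(3) libraries and 6.87, 7.97 and 10.1 in Sf3b1 K700E libraries. Every library with inv(3) was above every library without it. The rise was 3.16-fold in the double group over control (1.66 ± 0.17 log2 units, adjusted p = 2.21e-05), 4.20-fold in inv(3) over control (2.07 ± 0.17, adjusted p = 7.39e-06) and 4.25-fold in the double group over Sf3b1 K700E (2.09 ± 0.18, adjusted p = 4.17e-06).

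**Figure D2:**
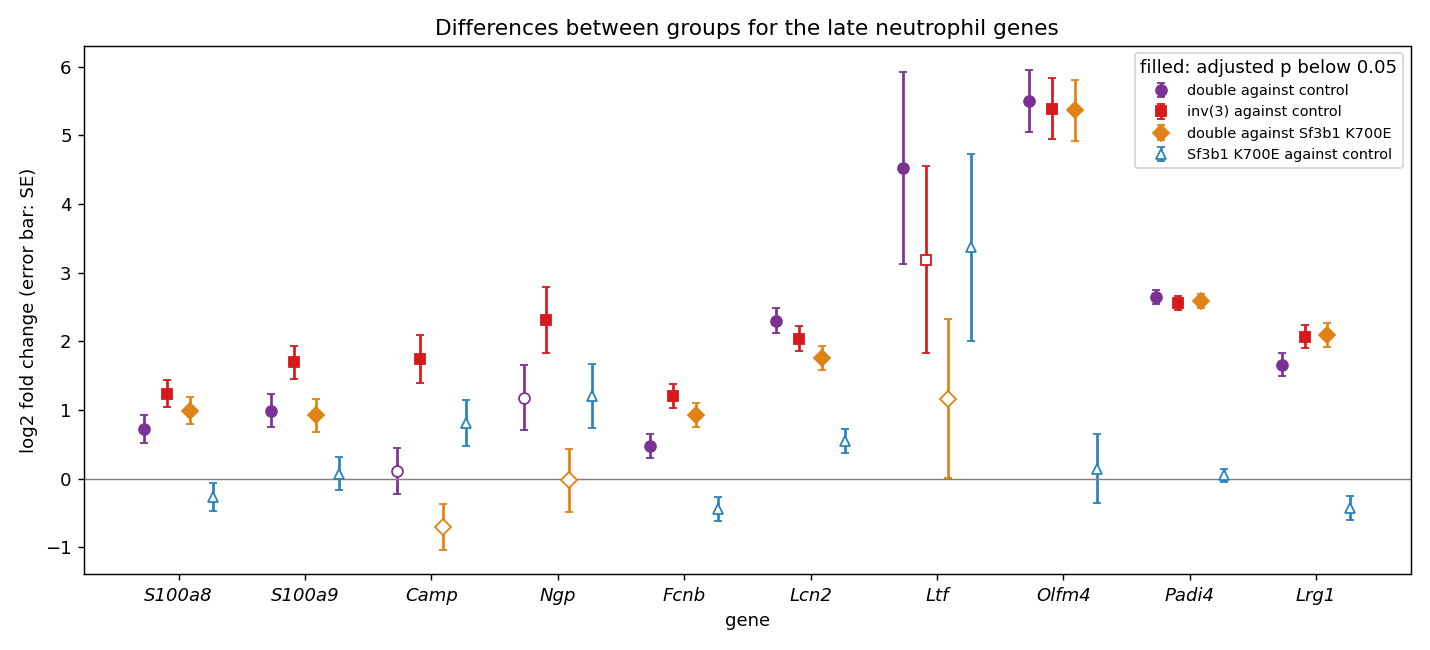
Log2 fold change of each gene in 4 comparisons, with SE from 1 model over 12 libraries; filled symbols have an adjusted p below 0.05. Lcn2, Olfm4, Padi4 and Lrg1 lie above 1.6 in the 3 comparisons that add inv(3), and Camp in the double group lies at 0.11 against control and -0.71 against Sf3b1 K700E.

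Adding Sf3b1 K700E to inv(3) asks what the splicing mutation does where the rearrangement is present. Of the 10 genes none rose and 2 fell, where 13.4% of all tested genes rose and 9.13% fell (22.6% in all), with a median log2 difference of -0.46 against 0.0025 over all genes. Those that fell were Camp and Fcnb. S100a8 and S100a9 were lower in every double library than in every inv(3) library, but the differences of -0.52 ± 0.20 and -0.70 ± 0.24 did not pass by edgeR (adjusted p = 0.089 and 0.057). S100a9 passed with DESeq2 (adjusted p = 0.0312) and with the compared groups alone (adjusted p = 0.0257), and both genes passed without double library 2 (adjusted p = 0.0433 for S100a8 and 0.0424 for S100a9). Olfm4 and Padi4 differed by 0.11 ± 0.34 and 0.08 ± 0.10 (adjusted p = 0.84 and 0.57). The 2 groups differ in Y-linked RNA, as described above, and without double library 1 the count was 1 and without double library 2 it was 4.

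Sf3b1 K700E alone against control gave no call among the 10, where 3.94% of all tested genes rose and 4.9% fell (8.84% in all). At an unadjusted p below 0.05 there were 4 higher and 2 lower, and DESeq2 called 2 higher, Lcn2 (0.55, adjusted p = 0.015) and Ltf (3.38, adjusted p = 0.031). Lcn2 averaged 19.3 ± 3.94 CPM in Sf3b1 K700E and 13.3 ± 0.634 in control (SD, n = 3), 0.54 ± 0.18 apart by edgeR (adjusted p = 0.08). Camp and Ngp differed by 0.81 ± 0.34 and 1.20 ± 0.47 (adjusted p = 0.16 and 0.14), with library 1 of Sf3b1 K700E among the control values and libraries 2 and 3 above them. Without that library Lcn2 passed (0.68, adjusted p = 0.046), and without library 3 Fcnb passed as lower (-0.63, adjusted p = 0.039).

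Whether the inv(3) effect differs with the splicing mutation was tested as the interaction. Of the 10 genes 1 passed, where 0.4% of all tested genes were higher and 0.436% lower (0.836% in all). Camp passed at -2.45 ± 0.48 (adjusted p = 0.047). It sets the difference of -0.71 between the double group and Sf3b1 K700E, which did not pass on its own (adjusted p = 0.104, ranges overlapping), against the difference of 1.74 between inv(3) and control. That call was lost in 8 of 12 fits that left out 1 library (adjusted p = 0.041 to 0.13 over the 12). Ngp had -2.33 ± 0.66 (adjusted p = 0.13), and passed with DESeq2 (-2.35, adjusted p = 0.0283). Ltf had -2.03 ± 1.76 (adjusted p = 0.63), and passed by edgeR only without double library 3 (-5.5, adjusted p = 0.0219). For Padi4, Lrg1 and Olfm4 the interaction was 0.04 ± 0.14, 0.02 ± 0.24 and -0.03 ± 0.60 (adjusted p = 0.93, 0.98 and 0.99).

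Within groups, libraries that were high in one of these genes tended to be high in others. Over the 12 libraries, log2 deviations from the group mean had a median Pearson r of 0.68 over the 45 pairs, and 42 pairs were above 0. These are descriptions, since the genes share libraries and scaling. The closest pairs were S100a8 with S100a9 (r = 0.98), Camp with Ngp (0.96) and Fcnb with S100a8 (0.96). Sf3b1 K700E library 1 was the lowest of its group in 9 of the 10 genes. Padi4 kept apart, with r between -0.29 and 0.35 to the other 9.

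**Figure D3:**
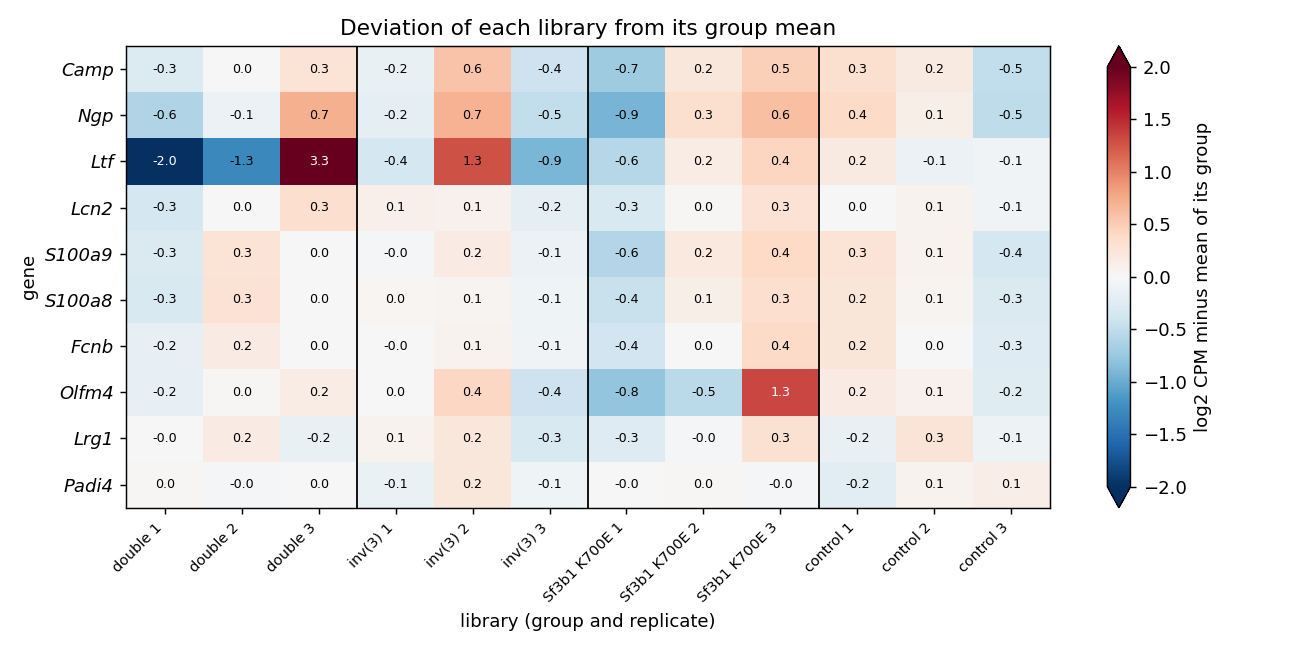
Log2 CPM of each gene in each library minus the mean of its group (colour, and number in each cell), with genes in rows and libraries in columns. Double library 3 lies 3.3 above its group mean for Ltf and 0.7 for Ngp, and Sf3b1 K700E library 1 lies below its group mean by 0.7 for Camp and 0.9 for Ngp.

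The 6 other genes with the profile most like the mean of the 10, by Pearson r of log2 CPM over 12 libraries among 10383 genes, were Prpf18, Pnp2, Cd177, Sgip1, Btg3 and Slfn2. Their r ran from 0.96 to 0.97. Cd177, a surface protein of neutrophils, averaged 37.1 CPM in the double group, 52.9 in inv(3), 18.9 in Sf3b1 K700E and 11.8 in control. Prpf18, with the highest r, averaged 71.7, 74.0, 64.8 and 64.2 CPM in the same groups. A high r thus does not measure the size of a difference.

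Other neutrophil genes did not move as one. Of 40 further genes of late granules and mature neutrophils tested, 11 rose and 12 fell in the double group against control (median 0.085), and 17 rose and 6 fell in inv(3) against control (median 0.43). In the double group against Sf3b1 K700E, 18 rose and 10 fell (25.7% and 23.5% of all genes), with a median of 0.25. In the double group against inv(3), 2 rose and 18 fell (median -0.39). Over all tested genes the shares that rose and fell were 20.8% and 20.4% in the double group against control. They were 18.4% and 20.3% in inv(3) against control, and 13.4% and 9.13% in the double group against inv(3). Those with the smallest p in the double group against control were Cst7, Chil1, Chil3 and Cxcr2. Chil3 and Chil1, chitinase-like secreted proteins, averaged 583 ± 79.9 and 24.8 ± 6.92 CPM in the double group and 87.6 ± 26.3 and 1.41 ± 0.513 in control (SD, n = 3). These are rises of 2.73 ± 0.26 and 4.14 ± 0.36 (SE, adjusted p = 1.22e-05 and 6.53e-06). Cxcr2, the chemokine receptor that draws neutrophils from marrow, rose to 28.6 ± 8.35 CPM in the double group, against 10.5 ± 0.486 in control (1.44 ± 0.15, adjusted p = 2.41e-05). Cst7, the protease inhibitor cystatin F, fell to 24.8 ± 2.74 CPM in the double group, against 289 ± 23.9 in control (-3.55 ± 0.18, adjusted p = 1.23e-07).

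Primary granule genes of promyelocytes were read as a further list. Of 12 tested, 2 rose and 1 fell in the double group against control (median -0.076), and 5 rose and 1 fell in inv(3) against control (median 0.24). In Sf3b1 K700E against control none rose and 8 fell (median -0.44). In the double group against Sf3b1 K700E, 9 rose and 1 fell (25.7% and 23.5% of all genes), with a median of 0.33. In the double group against inv(3), none rose and 7 fell (13.4% and 9.13% of all genes), with a median of -0.33. Over all tested genes the shares that rose and fell were 20.8% and 20.4% in the double group against control. They were 18.4% and 20.3% in inv(3) against control, and 3.94% and 4.9% in Sf3b1 K700E against control. Elane, neutrophil elastase, averaged 3966 CPM in the double group and 5345 in control (-0.43 ± 0.10, adjusted p = 0.004), while the protease Prss57 averaged 353 and 279 CPM in these groups (0.34 ± 0.08, adjusted p = 0.0039). Summed CPM of the 10 late genes per summed CPM of the primary granule genes ran from 0.087 to 0.11 in double libraries, 0.113 to 0.134 in inv(3) libraries, 0.0442 to 0.0845 with Sf3b1 K700E alone and 0.0416 to 0.0625 in control.

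Transcription factors of granulocytes were tested for 10 genes. Of these, 2 rose and 2 fell in the double group against control, near the shares over all tested genes (20.8% and 20.4%). In inv(3) against control 5 rose and 3 fell (18.4% and 20.3% of all genes). Stat3, which carries the signal of G-CSF, rose to 250 CPM in the double group, against 174 in control (0.52 ± 0.04, adjusted p = 3.01e-06). Spi1, which encodes PU.1, rose by 0.29 ± 0.10 (adjusted p = 0.037), while Cebpa fell by 0.32 (SE 0.06, adjusted p = 0.00089) and Irf8, a monocyte factor, by 0.94 (SE 0.30, adjusted p = 0.028). Cebpe, which encodes C/EBP-epsilon and was singled out after its values were seen, averaged 96.7 ± 8.20 CPM in the double group, 163 ± 46.9 in inv(3), 56.7 ± 8.97 in Sf3b1 K700E and 82.3 ± 11.6 in control (SD, n = 3). It was higher in inv(3) than in control by 0.99 ± 0.19 (SE, adjusted p = 0.0016), and the double group stood -0.76 ± 0.19 from inv(3) (adjusted p = 0.015).

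**Figure D4:**
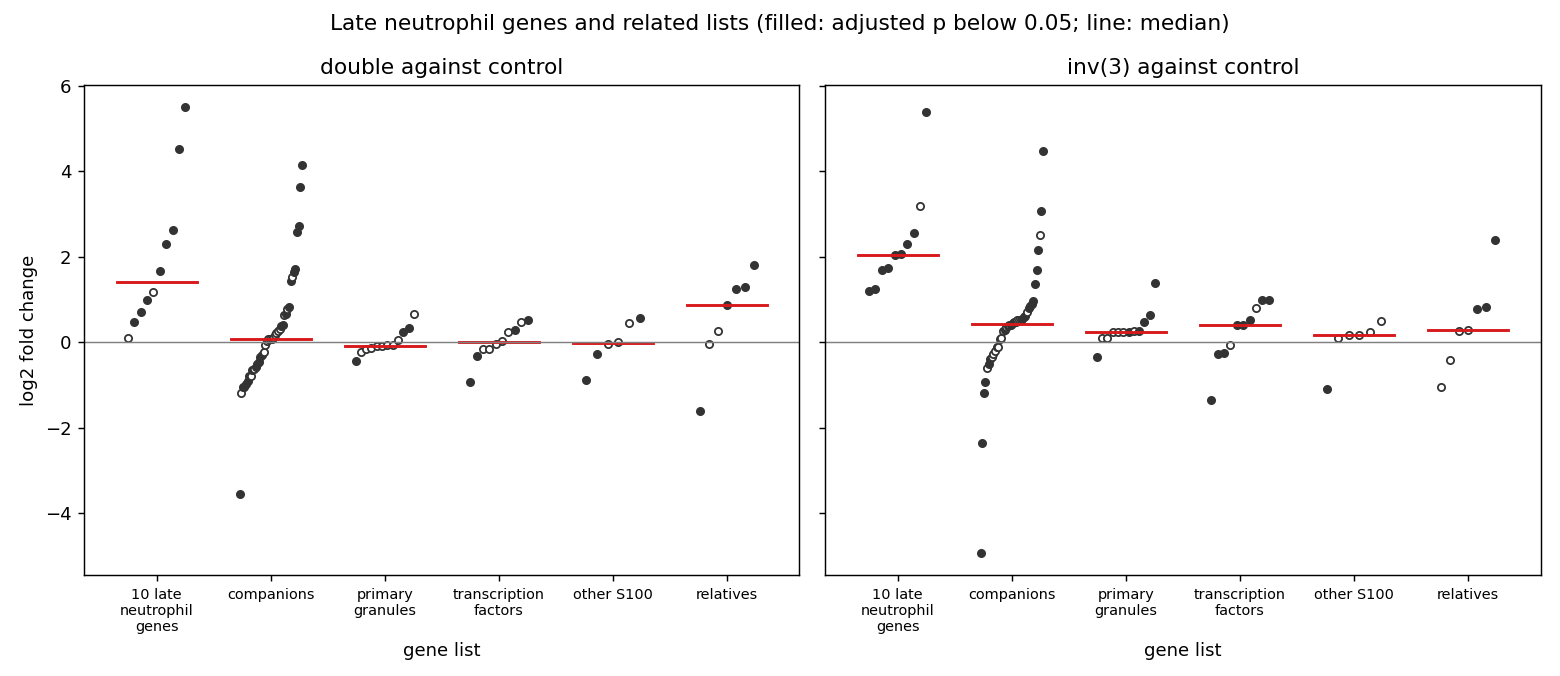
Log2 fold change of each tested gene in 6 lists, in the double group against control (left) and inv(3) against control (right); filled points have an adjusted p below 0.05 and lines are list medians. The 10 late genes have medians of 1.42 and 2.05, and the 12 primary granule genes -0.076 and 0.24.

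Markers of other cell types also differed between the groups. Beside their counts, 20.8% of all tested genes rose and 20.4% fell in the double group against control. The shares were 18.4% and 20.3% in inv(3) against control, and 3.94% and 4.9% in Sf3b1 K700E against control. Of 11 macrophage markers, all tested, none rose and 8 fell in the double group against control, 1 rose and 8 fell in inv(3) against control, and 9 rose and none fell in Sf3b1 K700E against control. Their summed level was 68.4 to 89.1 CPM in double libraries, 83.7 to 129 in inv(3) libraries, 462 to 636 with Sf3b1 K700E alone and 347 to 433 in control, and most of the control sum was Vcam1, an adhesion molecule (38.7 CPM in the double group and 313 in control). The other markers named for macrophages, monocytes and progenitors, apart from Ccr2, Ly6c2 and Cd34, were chosen after their values were seen. C1qa, a complement subunit of macrophages, averaged 1.89 CPM in the double group, 2.59 in inv(3), 26.5 in Sf3b1 K700E and 5.40 in control, and Adgre1, which encodes F4/80, 12.3, 18.3, 23.6 and 12.3 CPM in the same groups.

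Monocyte markers (6 of 6 tested) went both ways in the double group against control, with 2 higher and 4 lower, and their sum of 2082 to 2439 CPM in double libraries against 2120 to 2444 in control hides this. Ly6c2 fell to 863 CPM in the double group, against 1506 in control (-0.80 ± 0.08, adjusted p = 1.83e-05), and the chemokine receptor Ccr2 to 32.0 against 75.4 CPM (-1.24 ± 0.11, adjusted p = 5.66e-06). F13a1, a coagulation factor subunit, rose to 1165 CPM in the double group, against 466 in control (1.32 ± 0.26, adjusted p = 0.0022). In inv(3) against control none rose and 4 fell.

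Stem and progenitor markers (8 of 8 tested) also moved with the groups, 1 rising and 3 falling in the double group against control and 1 rising and 5 falling in inv(3) against control. Cd34 averaged 222 CPM in the double group, 130 in inv(3), 379.7 in Sf3b1 K700E and 295 in control. Flt3, a receptor of early multipotent progenitors, averaged 10.6, 6.23, 60.3 and 49.2 CPM in the same groups, and Hlf, a stem cell transcription factor, 18.1, 6.07, 49.1 and 38.9 CPM. Ly6a went the other way, averaging 53.8, 9.19, 5.725 and 3.46 CPM in the double, inv(3), Sf3b1 K700E and control groups.

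Summed mast cell and basophil markers (7 of 7 tested) were 115 to 127 CPM in double libraries, 147 to 183 in inv(3) libraries, 512 to 576 with Sf3b1 K700E alone and 530 to 548 in control. Eosinophil markers (8 of 8 tested) summed to 218 to 252, 258 to 319, 557 to 735 and 558 to 694 CPM in the double, inv(3), Sf3b1 K700E and control libraries, in that order. In the double group against control, 6 of the former list and 7 of the latter fell and none rose. Fcer1a and Il5ra of these lists had slightly higher means in the double group (14.7 against 12.5 and 2.80 against 2.18 CPM). Summed erythroid and megakaryocyte markers were likewise lower in the double group than in control, at 33.8 to 63.3 against 212 to 229 CPM and at 30.4 to 57.3 against 115 to 152 CPM. Of 6 tested in each list, 6 and 4 fell and none rose. Most of the mean control sums was Car1 (192 of 222 CPM) and Itga2b (82.25 of 137 CPM). Ppbp and Gp9 of the megakaryocyte list had higher means in the double group (1.37 against 0.754 and 3.57 against 3.21 CPM). B-cell markers stood at 23.9 to 33.4 CPM and T and NK markers at 2.09 to 6.83 in any library, with Cd3e at 0 in control and Cd3g and Ncr1 at 0 in the double group. Most of the B-cell sum was Cd79b (21.4 of 24.6 CPM in control), while Cd22 averaged 0.122 CPM in the double group and 2.27 in control. The part of these shifts in cell types in the results for the 10 genes was not tested.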

How the data were processed

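RNA was poly(A)-selected and made into unstranded TruSeq libraries, per the labels' protocols. The gene tables have RSEM's columns, per the file headers. The authors deposited expected counts, estimated per gene and not always whole, beside TPM, which the authors corrected for length. The submitters' processing notes name bcl2fastq and mm10. Aligner and versions: not given in the sources used here. Positions and promoter windows are RefSeq's for GRCm38, and all 10 genes matched by symbol.

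For testing, expected counts were rounded to whole numbers, passed through filterByExpr (minimum count 10) and TMM, and modelled by edgeR 4.0.16 under R 4.3.3, as a quasi-likelihood fit with 4 groups over 12 libraries. P-values are two-sided, Benjamini-Hochberg adjusted over 13755 genes, with a threshold of 0.05, and standard errors come from the F statistic. The code was tested on simulated counts. Replicate libraries differed by far more than counting noise, so none was counted as a duplicate. The members, lists and tests were chosen with earlier results of these data known. Genes named beside the 10 are in part those of each list with the smallest p in the double group against control. Others were checks of labels and gate, or had a profile like that of the 10. Further ones were chosen after their values were seen, among them Mmp9, Retnlg, Mmp8, Hp, G0s2, Cebpe and most named cell type markers. Alternatives were RLE scaling, other filters, DESeq2 1.42.0, compared groups alone, a replicate block, an effective-length offset, scaling without the members, and each library left out. Reads antisense to a gene, or shared between similar copies, cannot be assigned with certainty.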

Additional observations from a re-analysis of the deposited data

Results flagged for a closer look

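Camp was picked out because the inv(3) effect on it differed with the splicing mutation by a test of the difference itself. The interaction was -2.45 ± 0.48 log2 units (SE, 3 libraries per group, edgeR adjusted p = 0.047). Over the alternatives other than left-out libraries its adjusted p ran from 0.000345 with DESeq2 to 0.097 without a filter on low counts. The inv(3) libraries also lack Y-linked RNA, and that difference cannot be told apart from the allele.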

How the results depend on the processing

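Replicate numbers did not pair the libraries: same-numbered libraries deviated together with a median r of -0.0017, and a library correlated best with its own number in 8 of 36 checks. With a replicate block 6 genes rose in the double group against control (Fcnb and Ltf were lost, adjusted p = 0.0705 and 0.09), 9 in inv(3) against control and 7 in the double group against Sf3b1 K700E, 2 fell in the double group against inv(3), and 0 passed in the interaction. Among all genes the fit with the block made 654 calls in Sf3b1 K700E against control and 60 in the interaction. The main fit made 1216 and 115, and DESeq2 made 1868 and 625. In Sf3b1 K700E against control, 2 of the 10 genes were higher with the compared groups alone and with DESeq2. In the interaction 2 were lower with DESeq2 and 0 without a filter on low counts.

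Leaving out 1 library at a time, the genes that rose in the double group against control numbered 5 to 9, those higher and those lower in Sf3b1 K700E against control 0 to 1 each, those lower in the double group 1 to 4 against inv(3) and 0 to 1 against Sf3b1 K700E, and those lower in the interaction 0 to 1.

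Signs turned for small or unstable differences, on the log2 scale, and the cause was not tested. The Lrg1 interaction was -0.0041 at a mean of at least 5 CPM, and Ngp in the double group against Sf3b1 K700E was 0.0071 with the replicate block. With 1 library left out, Camp ran from -0.10 to 0.26 in the double group against control. Ltf ran from -2.13 to 2.25 in the double group against inv(3) and from -2.31 to 1.71 against Sf3b1 K700E, where Ngp ran from -0.46 to 0.26. Olfm4 ran from -0.070 to 0.34 in the double group against inv(3). In the interaction Lrg1 ran from -0.12 to 0.16, Olfm4 from -0.38 to 1.01 and Padi4 from -0.063 to 0.16. In Sf3b1 K700E against control Olfm4 ran from -0.91 to 0.50, Padi4 from -0.051 to 0.14 and S100a9 from -0.11 to 0.31. Padi4, Olfm4, Lcn2, Lrg1 and S100a9 kept their calls in all leave-outs of inv(3) against control, the double group against control and the double group against Sf3b1 K700E. For S100a9 the adjusted p reached 0.0326 in the second and 0.0331 in the third.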

Other observations

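Camp, Ngp and Ltf lie on chromosome 9 within 1195390 bases, from 109847377 to 111042766 (GRCm38). Of the 18 other tested genes in that span, 7 rose and 2 fell in the double group against control, with a median log2 difference of 0.09. In inv(3) against control 5 rose and 3 fell, with a median of 0.10. Over all tested genes 20.8% rose and 20.4% fell in the first comparison, and 18.4% and 20.3% in the second. Camp, Ngp and Ltf differed from control by 0.11, 1.18 and 4.53 in the double group and by 1.74, 2.31 and 3.19 in inv(3).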
